A study of Mus musculus with 8 samples.

Results

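In serum vesicles of mice carrying canine osteosarcoma cells, 198 canine genes held values that were listed at 0 in every mouse serum without such cells. They were selected on the deposited values themselves, out of 20716 canine genes and 52016 genes of dog and mouse in all. A gene had to be at 0 in all 4 tumour-free libraries, at 1 or more in each of the 4 tumour libraries, and at a mean of 2 or more over the tumour libraries. The canine gene ENSCAFG00000030616, which dominates 1 of the lines, was set aside by name and did not meet the rule in any case, since it was at 0 in an OSCA-32 library. The contrast of tumour with tumour-free libraries chose the genes, so it is described here without a test, and only the comparison of the tumour lines with each other is tested.

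The RNA came from exosome-enriched serum of NCr nu/nu mice, an athymic strain that accepts grafts from other species. Mice were injected in the tibia with 10 µl of phosphate-buffered saline (PBS) or with 100000 cells of OSCA-32 or OSCA-40, 2 cell lines derived from canine osteosarcoma. The 8 libraries form 4 groups of 2: serum pooled from all mice before injection (week 0), and serum pooled at necropsy, week 8, from the PBS, OSCA-32 and OSCA-40 mice. Week 0 and PBS are the tumour-free libraries. Every group shares the strain, each library comes from pooled serum, and each tumour group rests on 1 cell line. The labels give neither the age of the mice nor the size of the pools. The labels also do not say whether the 2 libraries of a group hold serum of different mice. A p-value therefore reflects the spread between these libraries alone, and that spread may be technical.

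Exosomes are small membrane vesicles that cells release into body fluids with part of their RNA and protein. In a xenograft the graft and the host belong to different species, so a read that fits only the graft's genome can in principle be traced to the graft. Conserved genes and repeats weaken that separation, because a host read can fit a transcript of either species. Osteosarcoma is a bone-forming cancer that is common in large dogs, and vesicle RNA in blood has been studied as a way to follow it.

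The deposited values are whole numbers that sum to nearly the same total in each library (977106 to 989183). They are therefore relative amounts, like abundances per fixed library total over both species together, and the depth behind them is unknown. A value of 0 means only that a gene is listed at 0. Canine genes held 14.7% to 17.4% of the tumour-free libraries, 43.3% and 44.7% of the OSCA-32 libraries and 68.4% and 70.7% of the OSCA-40 libraries, so some sequence is listed as canine in mice that carried no canine cells. Mouse transcripts of the vesicle proteins Cd9, Cd63, Cd81, Tsg101, Pdcd6ip and Flot1 were listed at 1 or more in all 8 libraries. So were Alb and Canx, the latter an endoplasmic reticulum protein used as a marker of non-vesicle material. The median over libraries was 154.5 for Cd9 and 5.5 to 9.5 for the other vesicle transcripts, against 9.5 for Canx and 12 for Alb. Being listed therefore does not set the vesicle transcripts apart. The tables used here pair no canine identifier with a name, so the genes are described by identifier and value, and their functions, positions and sequences are not given.

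The arrangement that defines the genes was mostly a canine one. It was met by 198 of 20716 canine genes, which is 0.956%, and by 6 of 31300 mouse genes, which is 0.0192%. The opposite arrangement, at 0 in all 4 tumour libraries and present at a mean of 2 or more in all 4 tumour-free libraries, was met by 1 canine gene (0.00483%) and by 47 mouse genes (0.15%). These shares restate the choice of the genes and are not a test. The species also start from different levels, since 19233 canine genes but only 1493 mouse genes were at 0 in all 4 tumour-free libraries. Only these could meet the arrangement, and 198 of the 19233 and 6 of the 1493 did. The contrast of the shares above therefore comes largely from how many genes could qualify.

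Against PBS alone, 96 canine genes were at 0 in both PBS libraries and at 1 or more, with a mean of 2 or more, in both OSCA-32 libraries, and 440 were so in both OSCA-40 libraries. These counts share the PBS libraries. Between the tumour-free groups, 4 canine genes were at 0 at week 0 and present by the same rule in PBS, and 1 was at 0 in PBS and present at week 0. For mouse genes the corresponding counts were 91 for OSCA-32, 57 for OSCA-40, 137 for PBS over week 0 and 110 for week 0 over PBS. For canine genes the counts were thus higher in the tumour groups than between the tumour-free groups, and for mouse genes they were lower. The values are relative, and mouse genes together held only 56.0% of the OSCA-32 and 30.4% of the OSCA-40 libraries, less than without a tumour. How far this lowered the mouse counts was not tested.

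The limit of the rule ran through a dense range of values. Of 19233 canine genes at 0 without a tumour, 314 were listed in every tumour library, and 116 of these had a mean under 2. Just outside the limit 33 genes had a mean of 1.75, and just inside it 32 had a mean of 2. Another 26 genes had a mean of 2 or more but were at 0 in some tumour library. All 26 were at 0 in an OSCA-32 library, 6 of them in both, while 2 were also at 0 in 1 OSCA-40 library and none in both. The demand for a value in every tumour library therefore removed genes through OSCA-32.

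**Figure D1:**
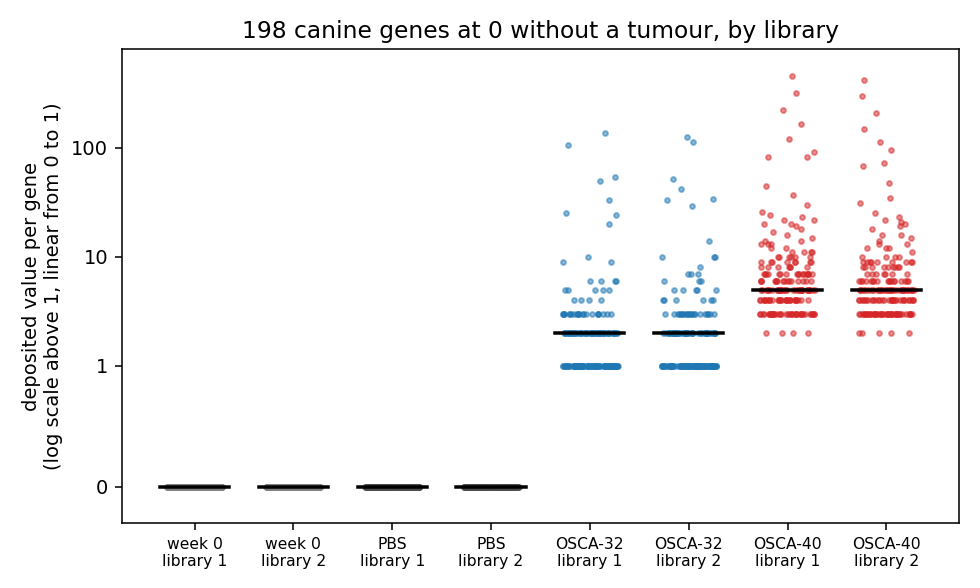
Deposited values (vertical axis, relative amount within a library, log scale above 1) of the 198 canine genes in each of the 8 libraries (horizontal axis), with 1 point per gene, spread sideways for visibility, and a bar at the median. All points are at 0 in the 4 tumour-free libraries by the choice of the genes; the medians are 2 in both OSCA-32 libraries and 5 in both OSCA-40 libraries.

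Most of the 198 genes were low, and a few carried much of the signal. The median gene stood at 2 in each OSCA-32 library and at 5 in each OSCA-40 library. Over the 4 tumour libraries 49 genes had a mean of at least 5, 21 of at least 10, 7 of at least 50 and 4 of at least 100. In OSCA-32, 63 genes were at 1 in both libraries and 164 were at 3 or less in both, whereas no gene was at 1 in any OSCA-40 library. The 8 highest genes held 54.8% and 52.3% of the summed value of the 198 in the OSCA-32 libraries and 53.9% and 54.0% in the OSCA-40 libraries. The division between a few high genes and many low ones was thus nearly equal in the lines.

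The highest of them was ENSCAFG00000030230. Its OSCA-32 libraries stood at 137 and 126 and its OSCA-40 libraries at 458 and 423. Alone it held 16.7% and 15.0% of the summed value in the OSCA-32 libraries and 16.0% in each OSCA-40 library. The next, ENSCAFG00000032531, took values of 107 and 112 for OSCA-32 against 318 and 302 for OSCA-40. For both genes the libraries of a line lay close together, and the lines did not overlap.

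ENSCAFG00000030108 came next, with 54 and 42 for OSCA-32 and 224 and 208 for OSCA-40. It was followed by ENSCAFG00000023567, with 50 and 52 for OSCA-32 and 166 and 148 for OSCA-40. Again every OSCA-40 library stood above every OSCA-32 library. The fifth to eighth genes ranged from 20 to 33 and from 10 to 34 in the OSCA-32 libraries, and from 82 to 121 and from 68 to 113 in the OSCA-40 libraries. The other 190 reached at most 10 and 14 for OSCA-32, and at most 45 and 48 with OSCA-40.

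Summed over the 198 genes, the value came to 821 and 838 for OSCA-32 against 2865 and 2648 for OSCA-40. As a share of the library this was 0.0843% ± 0.00126 (SD, n = 2) for OSCA-32 against 0.279% ± 0.0156 (SD, n = 2) for OSCA-40. The sum was 3.32 times as high with OSCA-40, and the 4 possible ratios of an OSCA-40 to an OSCA-32 library ran from 3.16 to 3.49. With 2 libraries against 2, an exact permutation test cannot give a p below 1 in 3, so the sum was not tested. In bulk RNA a higher value from more tumour cells cannot be told apart from one due to more RNA released per cell.

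The other sequences in the libraries moved differently. Mouse genes together held 56.0% of the OSCA-32 and 30.4% of the OSCA-40 libraries, a ratio of 0.546. The remaining canine genes, without ENSCAFG00000030616 and ENSCAFG00000031490, held 11.6% and 11.3%, a ratio of 0.984. That pair is the most abundant canine signal and takes up room in the library total of both lines, more in OSCA-40. The room is mainly that of ENSCAFG00000030616 in OSCA-40 and of ENSCAFG00000031490 in OSCA-32, so removing the pair takes out a different gene in each line. With the pair removed from the total, the 198 genes held 0.125% ± 0.000164 (SD, n = 2) for OSCA-32 against 0.663% ± 0.0172 (SD, n = 2) for OSCA-40. Of the canine values without the pair they held 0.724% ± 0.0173 (SD, n = 2) and 2.41% ± 0.209 (SD, n = 2). On each of these 3 scales both OSCA-40 libraries were above both OSCA-32 libraries.

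**Figure D2:**
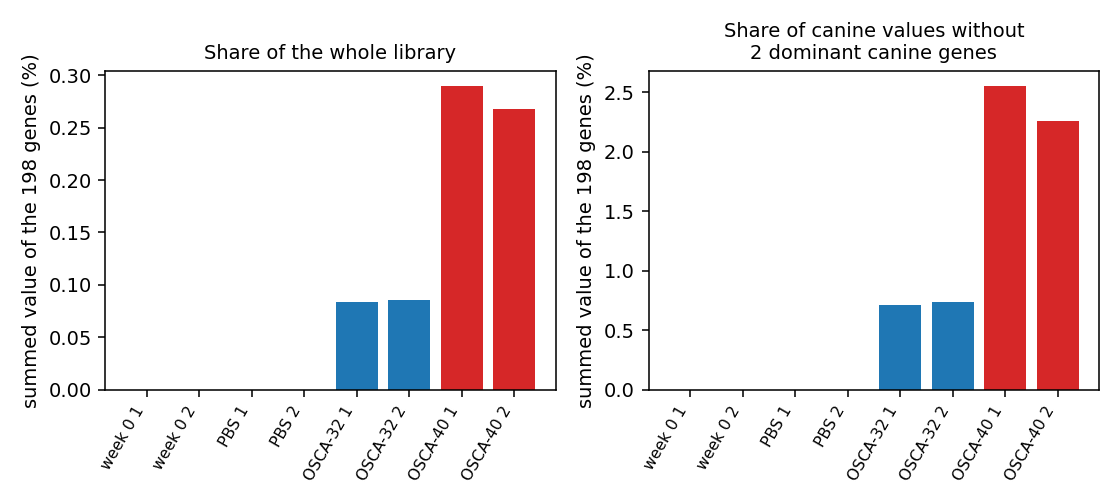
Summed value of the 198 canine genes in each library as a percentage of the whole library (left) and of the canine values without ENSCAFG00000030616 and ENSCAFG00000031490 (right), with 1 bar per library and no error bar. The tumour-free libraries are at 0 by the choice of the genes; on the left the OSCA-32 bars are at 0.0834 and 0.0852 and the OSCA-40 bars at 0.290 and 0.268.

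The ratio between the lines was similar for most genes, but for low genes the rule set part of it. The 63 genes at 1 in both OSCA-32 libraries could enter only with an OSCA-40 mean of 3 or more, a ratio of at least 3. For the 40 genes with an OSCA-32 mean of at least 3, the rule set no such bound. Their median ratio was 3.02, with quartiles of 2.60 and 3.675. As deposited, the ratio of the OSCA-40 mean to the OSCA-32 mean had a median of 3 over the 198 genes, with quartiles of 2.69 and 4. It was between 2 and 5 for 170 genes, above 5 for 13, from 1 to under 2 for 14 and under 1 for 1. In the last, singled out after its values were seen, the lines overlapped (2 and 6 for OSCA-32, 4 and 3 for OSCA-40), a ratio of 0.875. The summed ratio was 3.35 for the 8 highest genes, 3.73 for the 41 others with a mean of at least 5 and 2.98 for the 149 with a mean under 5. Over the 4 pairs of libraries these ran from 3.18 to 3.53, from 3.41 to 4.08 and from 2.77 to 3.19.

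Low values set the grain of these ratios. The values are whole numbers, and 26 of the 198 genes had the same values, 1 in both OSCA-32 and 3 in both OSCA-40 libraries. With 1 in both OSCA-32 libraries, an OSCA-40 mean of 3 is the lowest that the rule admits. The ratio is better defined for the 9 genes at 10 or more in all 4 tumour libraries, where its median was 3.25 and its range 2.60 to 5.17. Across the 198 genes, the mean log2(value + 1) in OSCA-32 and in OSCA-40 had a Pearson r of 0.931. Single libraries of the same line had an r of 0.898 for OSCA-32 and 0.973 for OSCA-40. The r between the lines is on means over libraries, so it cannot be ranked against these. These correlations are across genes that share libraries and are given as a description.

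**Figure D3:**
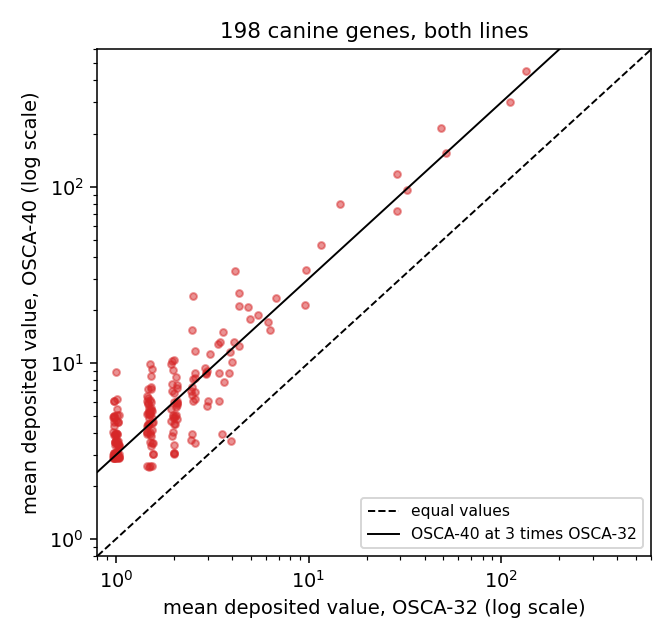
Mean deposited value of each of the 198 canine genes with OSCA-32 (horizontal axis) and with OSCA-40 (vertical axis), both on log scales, with points moved slightly apart where they coincide. The dashed line marks equal values and the solid line a ratio of 3, the median ratio; 1 gene lies below the dashed line. For genes at 1 in both OSCA-32 libraries the rule admits only ratios of 3 or more.

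The libraries of a line differed little for most genes, but low whole numbers left them little room to differ. With OSCA-32, 164 genes were at 3 or less in both libraries, and the rule demanded at least 1 in each. The counts that follow are therefore a weak measure of agreement. With OSCA-32, 97 genes had the same value in both libraries and 169 were within 1 of each other. With OSCA-40 the numbers were 74 and 143. In OSCA-40, 90 genes were higher in the first library and 34 in the second, and the summed value was 1.08 times as high in the first. In OSCA-32, 41 were higher in the first library and 60 in the second, with a summed ratio of 0.980. These differences are small beside the 3.32 between the lines.

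The comparison of OSCA-40 with OSCA-32 asks whether the genes differ between tumours of the lines. The rule did not compare the lines, but it limits this comparison: 111 of the 198 genes had an OSCA-32 mean under 2 and could reach the required mean only with a higher value in OSCA-40, so their direction was fixed by the choice. Scaling raised the OSCA-40 values relative to OSCA-32. In the fit below this also fixed the direction of the 47 genes with an OSCA-32 mean of 2 to under 3. For the 40 genes with an OSCA-32 mean of at least 3, any OSCA-40 value of 1 or more would have been enough. In the fit to all genes with a mean of at least 2 over the tumour libraries, 7 of the 198 genes were called higher with OSCA-40 and none lower, at an adjusted p of 0.05 (limma, Benjamini-Hochberg over 17252 genes). Over all tested genes 0.116% were called higher and 0.0058% lower. The other 191 did not pass, with adjusted p-values from 0.0517 to 0.668. Of the 7 called genes 6 were among the 40 whose OSCA-40 value was free (15% of the 40), and all 40 had a positive fold change (median 2.52). Among all tested genes with an OSCA-32 mean of at least 3, mostly mouse, 6302 of 15473 were positive (median -0.11). The other canine genes with such a mean lay between. Of these 271 of 346 were positive (median 0.51), and 12 were called higher (3.47%). The 40 were grouped after the values were seen and get no test. Over the whole 198, fixed directions included, the median log2 fold change was 2.12, and over all tested genes it was -0.04.

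Fold changes here are relative to the bulk of tested genes, mostly mouse, which as deposited differed between the lines by -1.02 on the log2 scale, OSCA-40 minus OSCA-32. They were taken on log2(scaled value + 1), where the added 1 shrinks the change of low genes. As deposited, both OSCA-40 values exceeded both OSCA-32 values for 186 of the 198 genes, against 2.75% of all tested genes, but this count is partly set by the rule. Among the 40 genes whose OSCA-40 value was free it was 37, against 149 of the 15473 tested genes with an OSCA-32 mean of at least 3. For the 346 other canine genes with such a mean it was 68 (19.7%). In the other 3 of the 40 the lines overlapped or touched. With library totals alone, without scaling on the bulk, 197 of the 198 had a positive fold change, with a median of 1.20 against -0.87 over all tested genes. There 108 of them were called higher, where 0.985% of all tested genes were called higher and 2911 genes lower.

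ENSCAFG00000008492 had the largest fold change among the genes called. Its values were 2 and 3 for OSCA-32 against 26 and 22 for OSCA-40, and it rose by 3.84 ± 0.25 (SE), with an adjusted p of 0.04995 (limma). Its lines were far apart, although the OSCA-32 values are low. With an OSCA-32 mean of 2.5, its sign in this fit was fixed by the rule and the scaling, though not the size of the rise. ENSCAFG00000030108, described above, followed with a rise of 3.18 ± 0.17 (SE, adjusted p = 0.0367, limma). The 7 called genes had log2 fold changes from 2.51 to 3.84, and all were among the 15 highest by mean.

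The calls were confined to the higher genes and moved with single libraries. All 7 called genes were among the 49 with a mean of at least 5, whose median log2 fold change was 2.59; none of the 76 with a mean from 3 to under 5 (median 2.17) or of the 73 below 3 (median 1.82) was called. Without the first or the second OSCA-32 library 0 or 17 genes were called (0 or 0.263% of all tested genes higher), and without the first or the second OSCA-40 library 99 of 158 or 112 of 166 that still met the filter (2.31% or 2.83% of all). Under the settings tried the count ran from 0 to 167, and each of the 5 genes named with its values lost its call in 4 to 6 of 14 settings, with the same sign in all 14.

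Other canine genes had a smaller median difference between the lines. Of 491 other canine genes tested, 12 were called higher with OSCA-40 and 1 lower, and the median log2 fold change was 0.76. For the 413 of them that were at 1 or more in every tumour-free library it was 0.63, with a median ratio of 0.80 as deposited. For the 78 at 0 in at least 1 tumour-free library it was 2.20, with a median ratio of 3, against 2.12 and 3 for the 198. Of these 78, 4 were called higher (5.13%), against 3.54% of the 198. The 16563 mouse genes tested had a median of -0.07 and a median ratio of 0.474. The 6 mouse genes with the same arrangement as the 198 had a median of 0.30, and none was called. In level, the 198 genes (median 3.25 over the tumour libraries) were close to the other canine genes (4.25) and the mouse genes (4). The difference between these sets of genes was not tested.

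**Figure D4:**
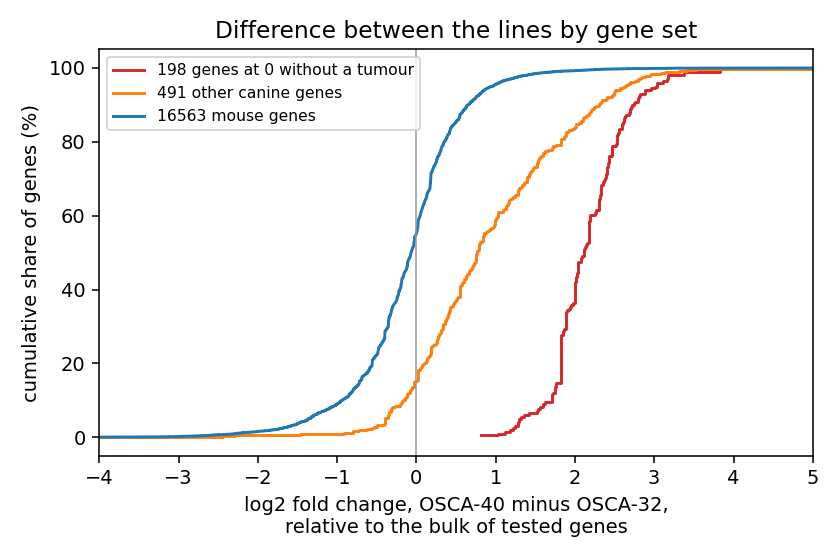
Cumulative share of genes (vertical axis, percent) by log2 fold change of OSCA-40 minus OSCA-32 relative to the bulk of tested genes (horizontal axis, cut at -4 and 5), for the 198 canine genes, the 491 other canine genes tested and the 16563 mouse genes tested. The curve of the 198 genes starts at 0.81 and has its median at 2.12, against 0.76 and -0.07 for the other sets.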

How the data were processed

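Per the labels' protocols, vesicles were enriched from serum with ExoQuick and libraries were stranded (SMARTer, pico input). The tools listed are kallisto 0.43.0, Trimmomatic 0.33.0 and FastQC 0.11.5, with CanFam3.1 and GRCm38.p5 as builds, per the submitters' processing notes. The transcript index and any filters are not stated there. The deposited score is a whole number per gene and library; although the table calls it a count, its totals are nearly equal across libraries, so it is treated as a relative amount. Whether values were rounded or shortened was not settled.

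Genes of both species with a mean of at least 2 over the 4 tumour libraries were tested with limma 3.58.1 (R 4.3.3) on log2(scaled value + 1), with 2 residual degrees of freedom, a variance trend and two-sided p-values adjusted by Benjamini-Hochberg over all of them. Tumour-free libraries stayed out, because the choice of the genes fixes them at 0. Scaling used an unweighted trimmed mean of log ratios (30% of ratios and 5% of levels trimmed at each end). The procedure was also run on simulated data, and no result here rests on that run. The simulated lines had no difference in the bulk of genes and no choice of genes by the rule, unlike the real data. Genes are named by rule: the 4 highest means, and the 2 largest changes in each direction among called genes without overlap between the lines; ties at the limit of the mean are given as counts. Marker lists set for canine symbols could not be used without names. The genes, lists and tests were chosen with earlier results of these data known.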

Additional observations from a re-analysis of the deposited data

Results flagged for a closer look

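The lines differed from the tumour-free libraries by different amounts in the same genes. The rule sets all 198 genes to 0 in PBS, so what can be tested is OSCA-40 against OSCA-32. There 7 of the 198 (3.54%) passed as higher with OSCA-40 (limma, adjusted p of 0.05). The share was 0.116% over all tested genes, mostly mouse, and 2.44% over the 491 other canine genes. The rule also fixed the direction of 111 of the 198. Together with the scaling it fixed that of the 47 with an OSCA-32 mean of 2 to under 3. Of the 40 with an OSCA-32 mean of at least 3, whose OSCA-40 value the rule left free, 6 were among those called. Canine genes as a whole took a larger share of the OSCA-40 libraries (68.4% and 70.7%, against 44.7% and 43.3% with OSCA-32). Without the dominant pair and the 198 genes they held 11.3% with OSCA-40 and 11.6% with OSCA-32. Groups of 2 libraries are too small for a check of single outlying libraries.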

How the results depend on the processing

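The number of the 198 genes called higher with OSCA-40 was 7; the share of all tested genes called higher follows each count in brackets. It was 3 with median-of-ratios scaling (0.0348%), 108 with library totals alone (0.985%), 0 with scaling on 410 canine genes listed in all 8 libraries (0%), 167 with all 8 libraries fitted (2.02%), 5 and 11 with pseudocounts of 0.25 and 4 (0.0522% and 0.168%), 0 without a filter (0%) and 0 without a variance trend (0%). A filter of at least 10 in 2 tumour libraries gave 32 of 32 (3.36%); it tests fewer genes, and only 9 of the 32 met it in OSCA-32 too. Leaving out single tumour libraries gave 0 to 112 (0% to 2.83%). Fitting all 8 libraries adds groups in which the genes are fixed at 0, which lowers their residual spread. Where the count was 0 with all 4 tumour libraries fitted, between 180 and 196 of the 198 had an unadjusted p under 0.05 (limma). In the main fit 195 did, against 1698 of 17252 tested genes. The 195 include all 111 genes with an OSCA-32 mean under 2. They also include 45 of the 47 with such a mean of 2 to under 3, whose direction was fixed in the main fit too. These counts are therefore partly set by the rule. With the replicate number as a block 116 were called (2.18%); the numbers only name the libraries, since same-numbered deviations had a correlation of 0.0064. The cause of the other differences was not tested. No setting called any of the 198 lower. The lone library of a line is assumed to vary like the other line's.

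The number of genes meeting the rule was 314 with a mean of at least 1, 49 with at least 5, 256 with up to 1 allowed in tumour-free libraries, 79 with 2 or more in all tumour libraries, and 159 to 259 without single libraries. The summed share moved from 0.0843% to 0.125% (OSCA-32) and from 0.279% to 0.663% (OSCA-40) without the dominant pair in the total, and to 0.724% and 2.41% of canine values. With 2 libraries a line and unknown depth, differences among the low genes are not resolved.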
